A study of Homo sapiens with 14 samples.

Results

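The P2-type pumps described here are 8 human genes: ATP2A2, ATP2A3, ATP2B1, ATP2B2, ATP2B4 and ATP2C1, which encode multi-span calcium pumps, and ATP1B1 and ATP1B3, which encode single-pass beta subunits of the sodium-potassium pump. They were chosen by gene symbol and pump family, with no threshold on a measured value but with earlier results of these data known. They are 8 of 19440 symbols counted. Of the 8, 7 passed the filter on low counts and were tested among 9458 genes: 5 of the 6 calcium pumps and both beta subunits.

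The counts are ribosome footprints from Flp-In T-REx 293 cells, a line derived from HEK293 (human embryonic kidney) in which a transgene sits behind a doxycycline-inducible promoter. The ER membrane protein complex (EMC) of the endoplasmic reticulum (ER) was tagged on 1 of its subunits in each of 3 lines. The EMC6 line was an EMC6 knockout carrying inducible 3Flag-EMC6. The other lines carried inducible 3Flag-EMC7 or 3Flag-EMC10, and their labels name no knockout. All lines, inputs included, had received doxycycline at 0.5 to 1 ng/mL for 72 h, and no library came from uninduced or untagged cells. Input was solubilized, nuclease-treated microsomes, and IP was what Flag beads held of it, with 2 pairs of input and IP for EMC6, 2 for EMC7 and 3 for EMC10. Whether the replicates were grown as separate cultures is not in the labels, and p-values therefore reflect only how these libraries vary, which may be technical.

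P2-type pumps move ions against a gradient by passing through a phosphorylated state of the pump protein itself. SERCA pumps (ATP2A) fill the ER with calcium, PMCA pumps (ATP2B) expel it across the plasma membrane, and SPCA pumps (ATP2C) load the Golgi with calcium and manganese. Their chains cross the membrane many times with short loops on the lumenal side. The beta subunit of the sodium-potassium pump instead has a short cytosolic N-terminus, 1 membrane segment and a large glycosylated lumenal domain (a type II protein), and it joins the rest of the pump in the ER. EMC inserts membrane segments into the ER membrane and binds some multi-span proteins while they are made. IP over input is thus read as how far ribosomes translating a message came down with the tagged complex. Without a library from untagged cells, what the beads held by themselves cannot be told apart from this.

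Libraries held 515302 to 3395114 counts on genes, and the EMC6 IP libraries were the shallowest. The 8 messages took 0.356% to 0.418% of the counts in EMC6 inputs, 0.628% to 0.708% in the other inputs, 0.903% to 0.924% in EMC6 IPs and 1.10% to 1.23% in the other IPs. The message of the bait itself took 14.4% to 26.2% of the EMC7 and EMC10 IP counts and 0.431% to 0.449% of the EMC6 IP counts. Of the markers listed for HEK293 cells, SALL2 (74 to 116 counts per input) and TUBB3 (7 to 16) were seen in every input, PAX2 had 1 to 9 counts, EYA1 0 to 9, NEFM 0 to 1 and LHX1 none. Each of the 11 markers of blood, liver, kidney epithelium, fibroblasts and endothelium had at most 3 counts in any input. Levels below are CPM, the counts scaled to library size, after TMM scaling, which sets the bulk of genes near no change. They are not scaled to gene length and compare a gene with itself only.

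All 5 tested calcium pumps rose in IP with every bait, and the beta subunits moved little. Over the mean of the 3 lines the calcium pumps rose by 1.88 to 2.68 on the log2 scale, which is 3.68- to 6.41-fold. ATP1B1 rose by 0.26 and ATP1B3 by 0.38 with TMM scaling, and both turned to falls when libraries were scaled by their size alone. In edgeR's quasi-likelihood test, at an adjusted p (Benjamini-Hochberg, over all tested genes) under 0.05, 5 of 7 members rose with EMC6, 6 of 7 with EMC7, 6 of 7 with EMC10 and 7 of 7 over the mean of the 3 lines. Of all tested genes 17.6%, 20.4%, 19.9% and 23.7% rose in the same 4 comparisons.

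**Figure D1:**
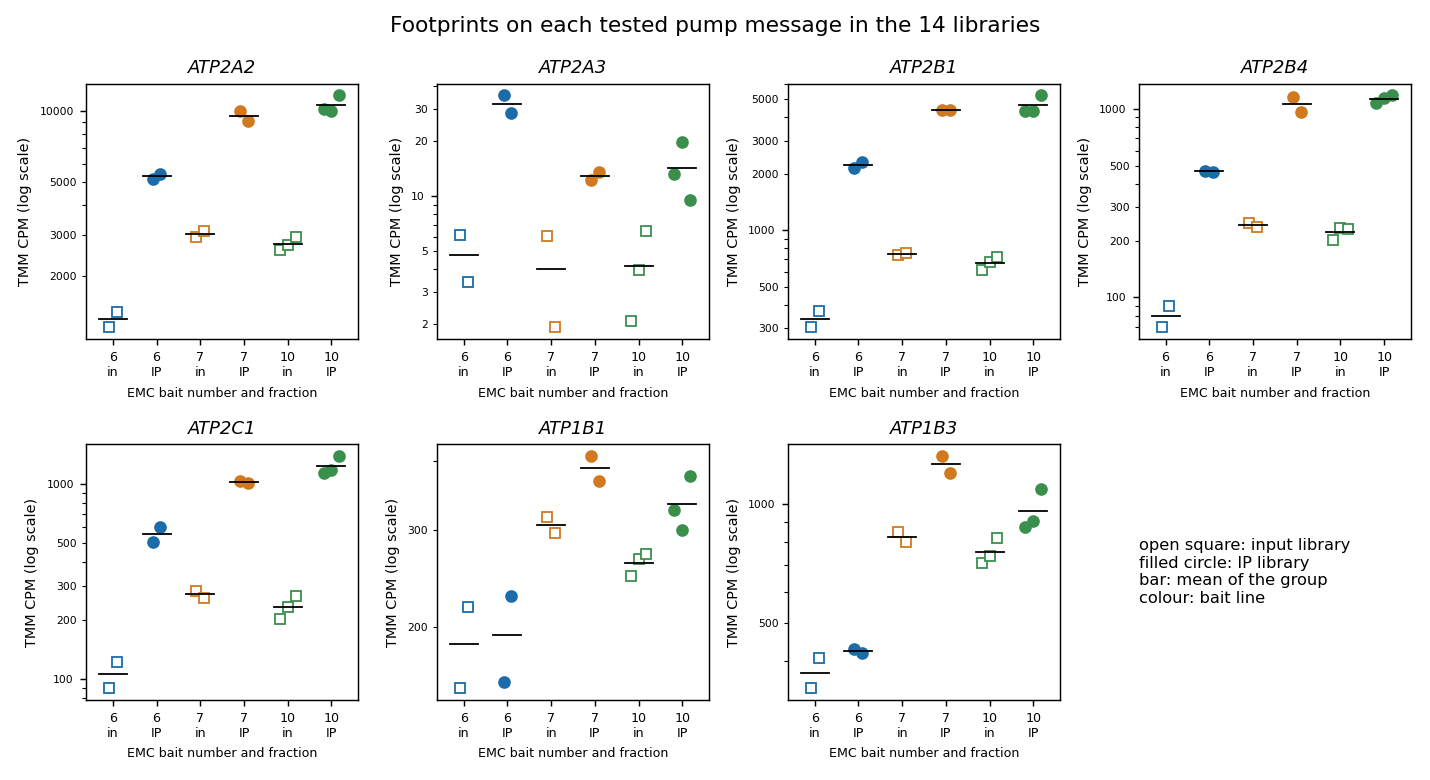
TMM-normalised CPM (log axis) of the 7 tested messages in each input library (open squares) and IP library (filled circles) of the EMC6, EMC7 and EMC10 lines, with a bar at each group mean. For ATP2A2, ATP2B1, ATP2B4 and ATP2C1 every IP library lies above every input of the same line, by several fold, whereas ATP1B1 and ATP1B3 libraries lie close together on narrower axes.

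ATP2A2 (SERCA2; chromosome 12, 110280616 to 110351093 in GRCh38) encodes the widely expressed ER calcium pump and had 2761 to 13989 counts per library. Its inputs read 1215 and 1414 CPM in the EMC6 line, 2936 and 3106 in the EMC7 line and 2586, 2704 and 2929 in the EMC10 line. The IPs read 5162 and 5445, then 10059 and 9098, then 10223, 10030 and 11720 CPM. No IP library overlapped an input of any line. The rise was 2.01 ± 0.15 (log2 ± SE) with EMC6, 1.66 ± 0.15 with EMC7 and 1.96 ± 0.12 with EMC10, with adjusted p of at most 1.4e-11 in edgeR. It was the smallest mean rise of the 5 calcium pumps (1.88 ± 0.08), and 6.81% of tested genes had a higher one.

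ATP2A3 (SERCA3; chromosome 17, 3923873 to 3964437) encodes an ER calcium pump known from blood cells and some epithelia. Only 6 to 26 counts fell on it per library. Its inputs held 17 and 10 counts with EMC6, 26 and 6 with EMC7 and 9, 18 and 24 with EMC10, and its IPs held 19 and 26, then 17 and 13, then 11, 22 and 10 counts. In CPM the EMC6 IPs (35.5 and 28.5) and the EMC7 IPs (12.2 and 13.6) were above their inputs, and the lowest EMC10 IP (9.55) was above the highest EMC10 input (6.43). The rise was 2.71 ± 0.46 with EMC6, 1.58 ± 0.49 with EMC7 and 1.80 ± 0.40 with EMC10 (edgeR adjusted p 1.29e-05, 0.0113 and 0.000455). The EMC7 call was lost without EMC7 IP replicate 1 or 2 or without EMC7 input replicate 2 (adjusted p 0.0670 to 0.121), and its value ranged from 1.06 to 2.69, the latter without EMC7 input replicate 1. It was also lost with ER luminal scaling (1.14, adjusted p = 0.0628), with library size after removal of the bait messages (0.78, adjusted p = 0.145) and with library size alone (0.57, adjusted p = 0.282), which ended the EMC10 call too (adjusted p = 0.0993).

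ATP2B1 (PMCA1; chromosome 12, 89588049 to 89709366) encodes the housekeeping plasma membrane calcium pump. Its inputs read 304 and 373 CPM in the EMC6 line, 738 and 761 in the EMC7 line and 611, 678 and 724 in the EMC10 line. In the IPs it read 2143 and 2316, then 4362 and 4348, then 4314, 4307 and 5241 CPM. It had the highest mean change of the 7 tested members: 2.72 ± 0.17 with EMC6, 2.54 ± 0.16 with EMC7, 2.78 ± 0.13 with EMC10 and 2.68 ± 0.09 over the mean of the 3 lines (edgeR adjusted p = 2.29e-24 for the last). The lowest IP, of the EMC6 line, lay above the highest input of any line, and only 2.81% of tested genes had a higher mean change.

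ATP2B4 (PMCA4; chromosome 1, 203626832 to 203744081) encodes a second plasma membrane calcium pump of many tissues. Its inputs spanned 69.4 to 90.3 CPM with EMC6, 235 to 246 with EMC7 and 201 to 233 with EMC10, and its IPs spanned 462 to 469, 963 to 1148 and 1077 to 1180 CPM. The rise was 2.54 ± 0.18, 2.13 ± 0.17 and 2.35 ± 0.14, and 2.34 ± 0.10 over the mean of the 3 lines. ATP2B2 (PMCA2; chromosome 3, 10324023 to 10708116), a pump of neurons and hair cells, had 0 to 2 counts in each library. It was not tested and no fold is given.

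ATP2C1 (SPCA1; chromosome 3, 130850595 to 131016712) encodes the Golgi calcium and manganese pump. Its inputs spanned 90.1 to 122 CPM with EMC6, 260 to 285 with EMC7 and 204 to 267 with EMC10. Its IPs spanned 505 to 600, 1013 to 1043 and 1148 to 1396 CPM, above the inputs of every line. The rise was 2.39 ± 0.19 with EMC6, 1.92 ± 0.18 with EMC7 and 2.40 ± 0.15 with EMC10, and 2.24 ± 0.10 over the mean of the 3 lines. None of the calls for ATP2A2, ATP2B1, ATP2B4 and ATP2C1 in IP over input changed when any 1 of the 14 libraries was left out.

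ATP1B1 (chromosome 1, 169106690 to 169132719) encodes the widespread beta subunit of the sodium-potassium pump. Its inputs read 155 and 217 CPM in the EMC6 line, 316 and 295 in the EMC7 line and 248, 266 and 271 in the EMC10 line. The IPs read 159 and 228, then 408 and 367, then 325, 300.1 and 375 CPM. Input and IP overlapped in the EMC6 line, and in the other lines the IPs lay just above the inputs. With TMM scaling the change was 0.08 ± 0.20 with EMC6 (edgeR adjusted p = 0.823), 0.34 ± 0.18 with EMC7 (0.159), 0.35 ± 0.15 with EMC10 (0.0676) and 0.26 ± 0.10 as the mean of all 3 (0.0348), whereas with library size alone it was -0.64, -0.68, -0.77 and -0.69. The call over the mean was lost without any 1 of 8 libraries: EMC6 input 1 and IP 2, EMC7 inputs 1 and 2 and IP 1, and EMC10 inputs 1 and 2 and IP 3 (adjusted p 0.0513 to 0.289). The value ranged from 0.15, without EMC6 IP replicate 2, to 0.37 over all 14 omissions. The EMC10 call was gained without any 1 of the EMC6 libraries (adjusted p 0.0313 to 0.0484). With the pair of input and IP as a block ATP1B1 rose with EMC7 (0.34, adjusted p = 0.000863) and with EMC10 (0.35, adjusted p = 5.5e-05), and DESeq2 called it with EMC10 too (0.43, adjusted p = 0.0367). In the EMC6 line, where it was not called, its value ranged from -0.24, without EMC6 IP replicate 2, to 0.45, without EMC6 input replicate 2.

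ATP1B3 (chromosome 3, 141876643 to 141926549) encodes another beta subunit. It read 342 and 407 CPM in EMC6 inputs against 430 and 418 in the IPs, and 852 and 802 in EMC7 inputs against 1325 and 1197 in the IPs. In the EMC10 line it read 710, 740 and 821 CPM in the inputs, and 878, 909 and 1096 CPM in the IPs. All IPs lay above the inputs of their line, by less than 2-fold. With TMM scaling the change was 0.18 ± 0.17 with EMC6 (edgeR adjusted p = 0.477), 0.61 ± 0.16 with EMC7 (0.00275), 0.35 ± 0.13 with EMC10 (0.0384) and 0.38 ± 0.09 over the mean (0.000503), whereas with library size alone it was -0.52, -0.41, -0.78 and -0.57. Leaving out EMC7 IP replicate 1 or EMC7 input replicate 2 ended the EMC7 call (adjusted p 0.0564 to 0.0717), as did ER luminal scaling (0.16, adjusted p = 0.3003), and leaving out any 1 of 8 libraries (all 4 of EMC7, and EMC10 inputs 1 and 2 and IPs 2 and 3) ended the EMC10 call (0.0509 to 0.222). With EMC6, where ATP1B3 was not called, its value ranged from 0.06, without EMC6 input replicate 1, to 0.41, without EMC6 input replicate 2.

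**Figure D2:**
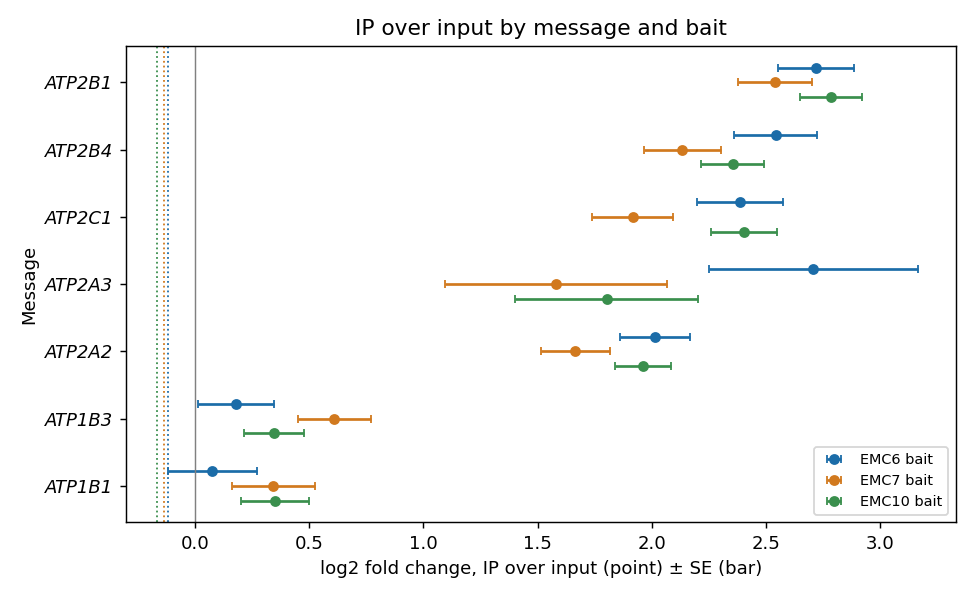
Log2 fold change of IP over input (points, horizontal axis) with its SE (bars) for each tested message with EMC6, EMC7 and EMC10 as bait; dotted lines mark the median of all tested genes with each bait. The calcium pumps lie between 1.58 and 2.78 and the beta subunits between 0.08 and 0.61.

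The zero of the scale depends on the scaling, while distances between genes do not. Averaged over the 3 lines, the median change of all tested genes was -0.19 under TMM, -0.10 under the size factors of DESeq2, -0.60 when libraries were scaled on genes of the ER lumen, -0.92 with library size after the counts of the 3 bait messages were removed and -1.13 with library size alone. The 5 calcium pumps rose under each of these 5 scalings, by 0.93 to 1.73 with library size alone. ATP1B1 fell by 0.69 and ATP1B3 by 0.57 with library size alone, where 12.0% of genes rose and 77.0% fell. With the bait messages removed they fell by 0.48 and 0.36, where 14.4% of genes rose and 70.9% fell, and with ER luminal scaling they read -0.15 and -0.03, not past the test. Relative to the median of all genes, ATP1B1 stood at 0.44 and ATP1B3 at 0.56 to 0.57 in every scaling, and the calcium pumps at 2.07 (ATP2A2) to 2.87 (ATP2B1).

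**Figure D3:**
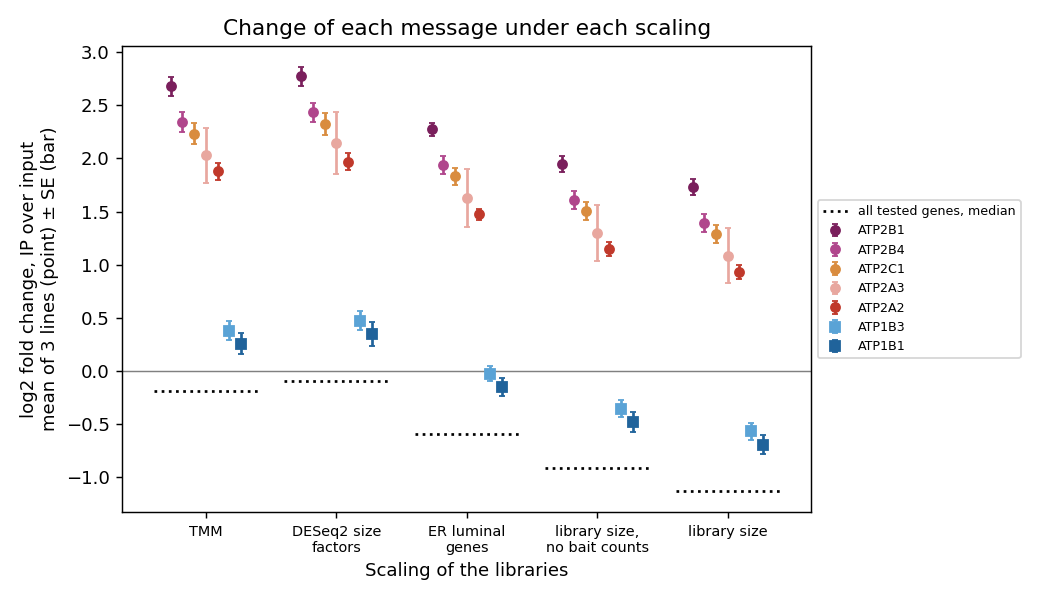
Log2 fold change of IP over input, as the mean of the 3 lines, with its SE for the 7 messages under 5 scalings of the libraries; dotted bars mark the median of all tested genes. From TMM to library size alone all points move down together with the dotted bar, and the beta subunits cross 0.

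The calcium pumps and the beta subunits were then compared within each of the 7 pairs of input and IP, where the scaling drops out. The mean log2 IP over input of the 5 calcium pumps exceeded that of both beta subunits by 2.35 and 2.39 in the EMC6 pairs, 1.39 and 1.72 in the EMC7 pairs and 2.12, 2.06 and 1.599 in the EMC10 pairs. The mean was 1.95 ± 0.38 (SD, n = 7 pairs). Without the sparsely counted ATP2A3, a choice made after its values were seen that also matches a planned minimum of 10 counts in every library, it was 1.98 ± 0.30. In 6 of the 7 pairs the lowest calcium pump was at least 0.39 above the higher beta subunit. In EMC10 replicate 3 ATP2A3 (0.61) came within 0.14 of ATP1B1 (0.47).

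Of 21 pairs of members, 15 differed when signs were flipped over the 7 pairs of libraries (exact permutation test, two-sided; adjusted p = 0.0219 in each, from the smallest p that 7 pairs allow). They included all 10 pairs of a calcium pump with a beta subunit, from ATP1B3 minus ATP2A2 at -1.52 ± 0.34 (SD) to ATP1B1 minus ATP2B1 at -2.43 ± 0.20. Among the calcium pumps, ATP2B1 was 0.35 ± 0.15 above ATP2B4 and 0.43 ± 0.14 above ATP2C1, each in 7 of 7 pairs. ATP2A2 was below the other well-counted calcium pumps in 7 of 7 pairs, at -0.81 ± 0.09 against ATP2B1, -0.46 ± 0.10 against ATP2B4 and -0.37 ± 0.13 against ATP2C1. The order was thus ATP2B1, then ATP2B4 and ATP2C1, which did not separate (0.08 ± 0.16, adjusted p = 0.346), then ATP2A2, then the beta subunits, which did not separate either (ATP1B1 minus ATP1B3 -0.11 ± 0.17, adjusted p = 0.205). ATP2A3 varied from 0.61 to 3.01 between pairs of libraries and did not separate from any other calcium pump. The 7 pairs of libraries come from 3 lines, and the test treats them as independent.

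**Figure D4:**
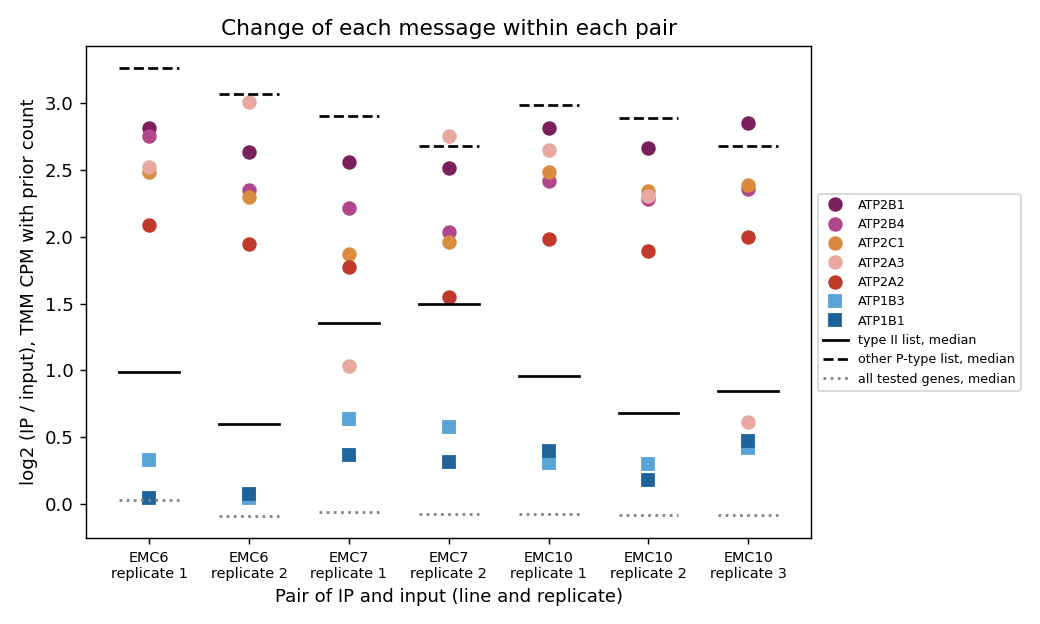
Log2 IP over input in each of the 7 pairs of libraries for calcium pumps (circles) and beta subunits (squares), with the medians of the type II list (solid), of the other P-type pumps (dashed) and of all tested genes (dotted). In each pair all 5 calcium pumps lie above both beta subunits, and the beta subunits lie below the type II median.

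Set beside other P-type pumps, the calcium pumps had lower values, a description with no test of the difference. A list of 21 P4 flippases, P5 pumps and copper pumps had 17 tested genes. All 17 rose over the mean of the 3 lines, where 23.7% of all tested genes rose. The most sparsely counted of the 17 would not have passed the filter on low counts by their inputs alone. The filter thus favoured a rise of those genes. The median of the list was 2.86, from 1.67 for the copper pump ATP7A to 3.65 for the lipid flippase ATP11A. The mean of the calcium pumps was below the median of the list in 7 of 7 pairs of libraries (mean difference -0.66 ± 0.17, SD). Of 27 tested membrane proteins that handle calcium and other ions, mostly channels, exchangers and cotransporters, all 27 rose with TMM scaling. Their median was 2.25, from 0.29 for the single-pass ER calcium sensor STIM1 to 4.15 for the sodium-potassium-chloride cotransporter SLC12A2. With library size alone 21 rose and 4 fell, where 12.0% of all tested genes rose and 77.0% fell. Several of the 27 had few counts in the inputs and passed the filter on low counts only through IP libraries. The filter thus favoured a rise of these genes, and their part in the count carries little weight.

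Set beside other type II single-pass proteins, the beta subunits had lower values, again with no test. Of 56 tested type II proteins, mostly Golgi glycosyltransferases, 51 rose with TMM scaling (median 1.02), from -0.01 for the furin substrate ITM2B, not past the test, to 1.86 for the mannosidase MAN2A2. With library size alone 16 rose and 16 fell. Of all tested genes 23.7% rose with TMM scaling, and 12.0% rose and 77.0% fell with library size alone. Relative to the median of all genes, the type II median stood at 1.20 under both. In each of the 7 pairs of libraries the mean of ATP1B1 and ATP1B3 was below the type II median (mean difference -0.67 ± 0.24, SD). The type II median itself lay 0.54 to 1.85 below the mean of the calcium pumps, least so in the EMC7 pairs. By bait, the type II median with TMM scaling was 0.80 with EMC6, 1.41 with EMC7 and 0.77 with EMC10. Of 55 tested soluble proteins of the ER lumen 30 rose with TMM scaling, and with library size alone 6 rose and 39 fell. Their TMM median was 0.34, close to the values of both beta subunits. The values ran from -0.18 for the disulfide isomerase PDIA3, not past the test, to 1.33 for the glycoprotein folding sensor UGGT2.

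Further genes of the same pump families were also tested. Over the mean of the 3 lines the proton-potassium pump ATP12A rose by 2.50 ± 0.27 and the muscle SERCA1 gene ATP2A1 by 2.08 ± 0.37, on 4 to 23 and 2 to 15 counts per library. Neither ATP12A nor ATP2A1 would have passed the filter on low counts by its inputs alone. The filter thus favoured a rise of both. The beta subunit ATP1B2 read 0.08 ± 0.21 (edgeR adjusted p = 0.779), and with library size alone it fell by 0.87.

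ATP2B3, a neuronal plasma membrane calcium pump, rose by 2.92 ± 0.28 with EMC7 and 2.65 ± 0.22 with EMC10. In the EMC6 line it had 2 and 1 counts in the inputs and 0 and 9 in the IPs, against 29 to 78 counts in the inputs of the other lines. Its EMC6 value (3.42 ± 1.00) rests on these few counts.

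Partners listed for P-type pumps gave 6 tested genes. Their median was -0.07 over the mean of the 3 lines, where that of all genes was -0.19. Of the 6, the FXYD regulator FXYD6 (0.94 ± 0.27) and the basigin gene BSG (0.21 ± 0.08), an Ig-type partner of transporters, rose with TMM scaling. FXYD5 (-0.35 ± 0.12) and the PMCA partner neuroplastin, NPTN (-0.32 ± 0.10), fell. EMB (-0.16 ± 0.14) and the flippase partner TMEM30A (0.03 ± 0.10) did not pass the test. With library size alone none rose and 5 of the 6 fell, the exception being FXYD6 (-0.01). Of all tested genes 23.7% rose and 26.9% fell with TMM scaling, and 12.0% rose and 77.0% fell with library size alone. The counts among the 6 partners were thus near those of all genes. FXYD6 overlaps a readthrough gene with FXYD2, and how the authors' counting split their reads is not given in the sources used here.

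No member's change differed between baits in the edgeR fit without a block, where 0.518% of genes differed for EMC6 against EMC7, 0.0740% for EMC6 against EMC10 and 0.159% for EMC7 against EMC10. Of the 21 values, 1 had an unadjusted p under 0.05 in edgeR: ATP2C1 for EMC7 minus EMC10, at -0.49 ± 0.22 (adjusted p = 0.696). With the replicate block, which uses that each IP was made from the input of its number, 3 members differed between EMC6 and EMC7, where 6.31% of genes did. ATP2A2 was higher with EMC6 by 0.35 (adjusted p = 0.0110) and ATP2C1 by 0.47 (0.00829), and ATP1B3 was lower (-0.44, 0.00669). Between EMC7 and EMC10, 2 members differed with the block, where 4.38% of genes did: ATP2A2 (-0.29, adjusted p = 0.0317) and ATP2C1 (-0.49, 0.000259) were lower with EMC7. Between EMC6 and EMC10 none did, against 2.23% of genes.

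Levels in the inputs differed by line. In EMC6 inputs 6 of 7 members were lower than in the mean of the EMC7 and EMC10 inputs with TMM scaling, where 21.8% of genes were lower: ATP2B4 (-1.53 ± 0.16, log2 ± SE), ATP2C1 (-1.25 ± 0.16), ATP2A2 (-1.13 ± 0.13), ATP1B3 (-1.08 ± 0.14), ATP2B1 (-1.07 ± 0.14) and ATP1B1 (-0.60 ± 0.16). ATP2A3 read 0.19 ± 0.42 (edgeR adjusted p = 0.756). ER luminal genes were lower in the same inputs (51 of 55 tested, median -1.04), and when libraries were scaled on them ATP1B1 (0.39) and ATP2A3 (1.20) were higher, ATP2B4 (-0.53) was lower and the other 4 did not pass the test, where 75.8% of genes differed. The call for ATP1B1 was lost with library size alone (-0.30, adjusted p = 0.0700) and without EMC6 input replicate 1 (-0.40, adjusted p = 0.0883), and without EMC6 input replicate 2 its value was -0.92. The line, the knockout and the preparation of the microsomes cannot be told apart here, nor can fewer ribosomes on a message and less of the message. Between EMC7 and EMC10 inputs no member differed in edgeR (values 0.06 to 0.23, 0 of 7 with an unadjusted p under 0.05), against 0.0211% of genes.

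Among 6327 genes with a mean of at least 10 CPM, those nearest to the mean profile of the calcium pumps over the 7 pairs of libraries were DERL1, POR, SLC37A3, SLC20A2 and SLC35F1 (Euclidean distance 0.29 to 0.44, mean log2 IP over input 2.19 to 2.37). DERL1 is a multi-span protein of ER-associated degradation, POR the single-pass reductase that serves cytochrome P450, and the other 3 are multi-span proteins of solute carrier families. Those nearest to the beta subunits were ITGB1, COCH, ERO1B, CANX and SFRP1 (distance 0.28 to 0.34, mean 0.32 to 0.40). ITGB1 (an integrin chain) and CANX (calnexin) are single-pass proteins with a signal peptide, and COCH, ERO1B and SFRP1 are secreted or lumenal.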

How the data were processed

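Ribosome footprints were counted in 14 libraries. The authors deposited whole-number counts per gene symbol, not normalized. The build hg38 and the tools TopHat2 2.1.0, Bowtie2 2.2.6 and cutadapt 4.1 are given per the submitters' processing notes. Not given in the sources used here are the annotation, the strand setting and the handling of duplicates. Reads of overlapping or antisense genes can thus not be separated, and duplicates may remain. Rows that name no gene held 9.28% to 12.5% of all counts in the EMC6 libraries and 2.76% to 5.15% in the others. They were left out.

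With edgeR 4.0.16 (limma 3.58.1; R 4.3.3) 1 model was fitted to all libraries, with a coefficient for each line and fraction, TMM, filterByExpr and the robust quasi-likelihood test, adjusted by Benjamini-Hochberg over 9458 genes. Values per pair are log2 ratios of TMM CPM with a prior count of 0.5. DESeq2 1.42.0, other scalings, no filter, a replicate block and fits without each library were alternatives. The steps were tested on simulated counts.

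The labels carry a batch tag that holds the replicate number, shared by input and IP of a line, and per the labels' protocols IP was drawn from input, so numbers pair them. Deviations of same-numbered libraries correlated at 0.272 (EMC6), 0.0744 (EMC7) and 0.0411 to 0.0951 (EMC10), so the pairing rests on the labels. Replicates differed by more than sampling noise in each group (chi-square over its degrees of freedom 1.91 to 7.74). The EMC6 inputs (7.74) and EMC6 IPs (3.93) had the highest values.

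The members and lists were chosen with earlier results of these data known. Named genes are the 8 members, every tested gene of the lists of other subunits and partners, the lowest and highest of the other lists over the mean of the 3 lines, and the 5 genes nearest in profile to each kind of member. Some genes of these lists are not reported here. Positions come from RefSeq for GRCh38 (18968 of 19440 symbols matched). A planned count of hydrophobic segments was not run, since it needs protein sequences not used here.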

Additional observations from a re-analysis of the deposited data

How the results depend on the processing

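With library size alone the change of ATP1B1 turned to -0.64, -0.68, -0.77 and -0.69 (EMC6, EMC7, EMC10, mean of 3 lines) and that of ATP1B3 to -0.52, -0.41, -0.78 and -0.57. With bait messages removed they were -0.63, -0.46, -0.35 and -0.48, and -0.52, -0.19, -0.36 and -0.36. ER luminal scaling gave ATP1B3 -0.0047 with EMC10, ATP1B1 -0.15 and ATP1B3 -0.028 over the mean, and ATP1B1 0.39 in EMC6 inputs, where 3 members were then called. Between EMC6 and EMC7, 3 members differed with the replicate block and 1 (ATP2A2) with library size alone. Between EMC7 and EMC10, 2 did with the replicate block and 1 (ATP2C1) with only the compared lines fitted. The block also called ATP1B1 with EMC7 and EMC10 and changed no other call of a member. Fits of a single line also called ATP1B1 with EMC7 and EMC10. The causes were not tested. Without the low-count filter ATP1B3 with EMC10 (adjusted p = 0.0772) and ATP1B1 over the mean (0.0600) were not called. The difference between calcium pumps and beta subunits stayed at 1.94 to 1.98 with another prior count, the median of members or pumps with at least 10 counts in every library, and at 1.87 to 2.04 without any 1 pair. Depth limits ATP2B2 and ATP2A3, and 2 or 3 pairs per line limit every comparison of baits.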
